A study of Rattus norvegicus with 47 samples.

Results

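The genes described here are the early risers of the blood transcriptome that stood below their starting level a day after stroke. They are 43 probe sets of the 21406 that carry a gene symbol, out of 27596 in all, on a rat gene expression array. The change of a probe set is its mean log2 signal at a time point minus its mean at 0 h. A probe set was taken where its highest change over 1, 2, 3 and 6 h was 0.5 or more and larger than the size of its 24 h change, and where its 24 h change was -0.25 or lower. These thresholds are on the log2 scale, on which 1 unit is a doubling. Of all probe sets with a symbol, 6.37% reached the first limit, 13.8% reached the second, and 0.201% met the whole rule. Since the rule uses every contrast with 0 h, all changes below are descriptions of size with no test, and a rise or fall is named by size alone.

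Whole blood was taken from 8 male spontaneously hypertensive rats (SHR), an inbred model of high blood pressure, all 16 weeks old. Stroke was induced under isoflurane by transient occlusion of the middle cerebral artery (MCA) with a silicon-coated thread. The artery was reopened under renewed anesthesia between the 1 h and 2 h samples. The 1 h samples thus fall within the occlusion. From 2 h on, time cannot be told apart from the effects of the reopening and of the renewed anesthesia. Each rat was sampled immediately before anesthesia (0 h) and at 1, 2, 3, 6 and 24 h post MCA occlusion, which gave 47 arrays, with 8 per time point and 7 at 6 h, where the sample of 1 rat was missing. Until 6 h the blood was drawn from a tail vein, but at 24 h by puncture of the heart after an anesthetic overdose, so time and sampling site cannot be told apart at 24 h. No rat had surgery without occlusion, so the 0 h samples are the only reference and the effects of anesthesia, surgery, repeated bleeding and time of day cannot be told apart from that of the occlusion. RNA was extracted from the blood cell pellet, and in such a mixture fewer cells of a type and less RNA per cell cannot be told apart. The signals come with no detection call, and the levels of different probe sets are not comparable, so no marker of a blood cell could be called present or absent by its level.

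Within hours of a stroke, neutrophils enter the blood from the marrow and lymphocytes leave it, and the blood transcriptome follows both. Circulating leukocytes also switch on early response genes, such as transcription factors, cytokines and the interferon-stimulated genes, whose messages often decay quickly once the stimulus ends. A transcript that is high early and then lower than before is best read beside the markers of its cell type.

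Most genes that rose early in these rats were still raised at 24 h. Of the 1364 probe sets with an early change of 0.5 or more, 53.4% were 0.25 or more above 0 h at 24 h, 13.9% were below 0 h by any amount, and 3.3%, or 45, were 0.25 or more below it. The last 45 hold the 43 members and 2 probe sets whose 24 h change was as large as their rise. These 2 were a shared probe set for several Ly49 receptors, at 0.65 and -0.71, and Oasl2, an oligoadenylate synthetase-like gene induced by interferon, at 0.62 and -0.80. Median changes over the members were 0.39, 0.71, 0.58, 0.58 and -0.38 at 1, 2, 3, 6 and 24 h, while over all probe sets with a symbol they lay between 0.04 and 0.07 at every time point.

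**Figure D1:**
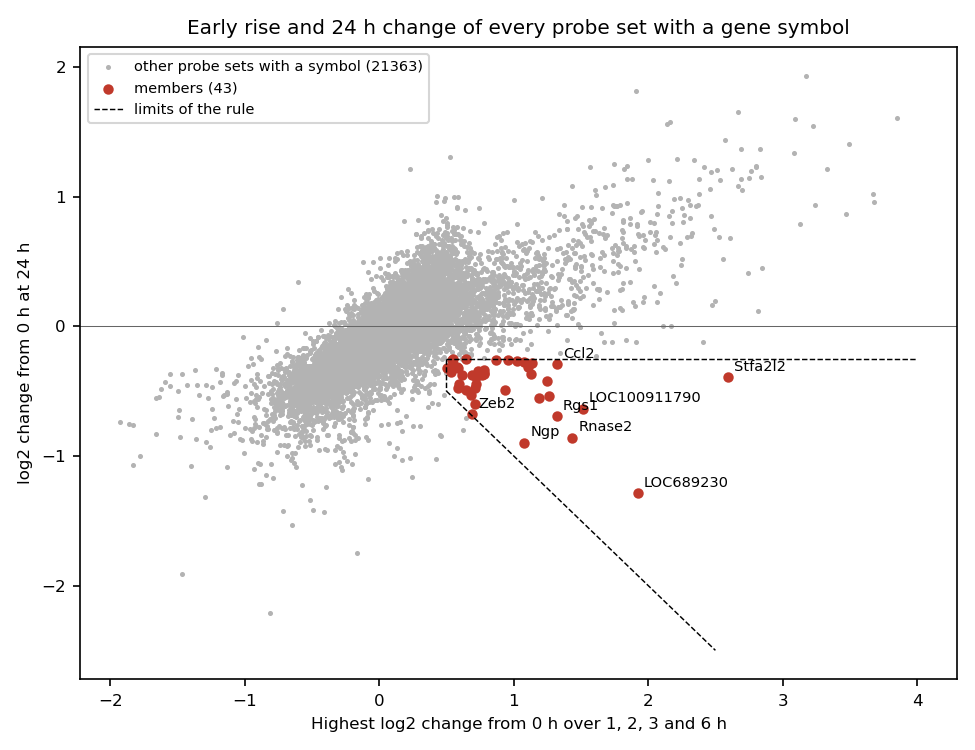
Highest change from 0 h over 1, 2, 3 and 6 h (x axis, log2) against the change at 24 h (y axis, log2) for each of 21406 probe sets with a gene symbol, with the 43 members in red and the limits of the rule dashed. Most probe sets to the right of 0.5 lie above 0 at 24 h, and the members form the sparse lower right corner, with LOC689230 lowest at -1.29 and Stfa2l2 farthest right at 2.59.

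Among the members the highest early change ran from 0.50 to 2.59 (median 0.76) and was 1 or more in 15. The 24 h change ran from -0.25 to -1.29 (median -0.38) and was -0.5 or lower in 10. The spread over the rats was judged from the deposited SDs, whose median at 0 h was 0.19 over the members. The early rise exceeded the larger SD of both time points in 43 of 43 members, against 44.7% of all probe sets with a symbol, and the rule itself favours this. The 24 h fall exceeded the larger SD in 36 members, against 18.0% of all, which the limit at 24 h likewise favours. In the other 7 the fall lay within the spread of single rats: a Stfa2l2 probe set, Rgs1, Ccl2, Egr1, Ptgs2, Clec4a2 and LOC102554194.

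Of the members, 24 peaked at 2 h, 9 peaked at 3 h, 8 peaked at 6 h, and 2, Rgs1 and Il12rb2, peaked at 1 h. Among all 1364 early risers the shares with their peak at 1, 2, 3 and 6 h were 12.5%, 29.8%, 13.4% and 44.3%. Of the members, 23 were above 0 h at all 4 early time points, and 9 of these by 0.5 or more each time. A different course was seen in 14 members, which were below 0 h at 1 h before they rose, against 39.6% of all probe sets and 11.2% of all early risers. The end of the course differed less: 41 members were lower at 24 h than at 6 h, which the limit at 24 h favours. In 34 the step from 6 h to 24 h was the largest of all their steps. The same limit favours this, and that step spans more hours than any other. No share of other probe sets is given for the counts of 23, 9, 41 and 34, so they are not read as traits of the members. The median difference between 24 h and 6 h was -0.90 over the members and 0.01 over all probe sets with a symbol.

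**Figure D2:**
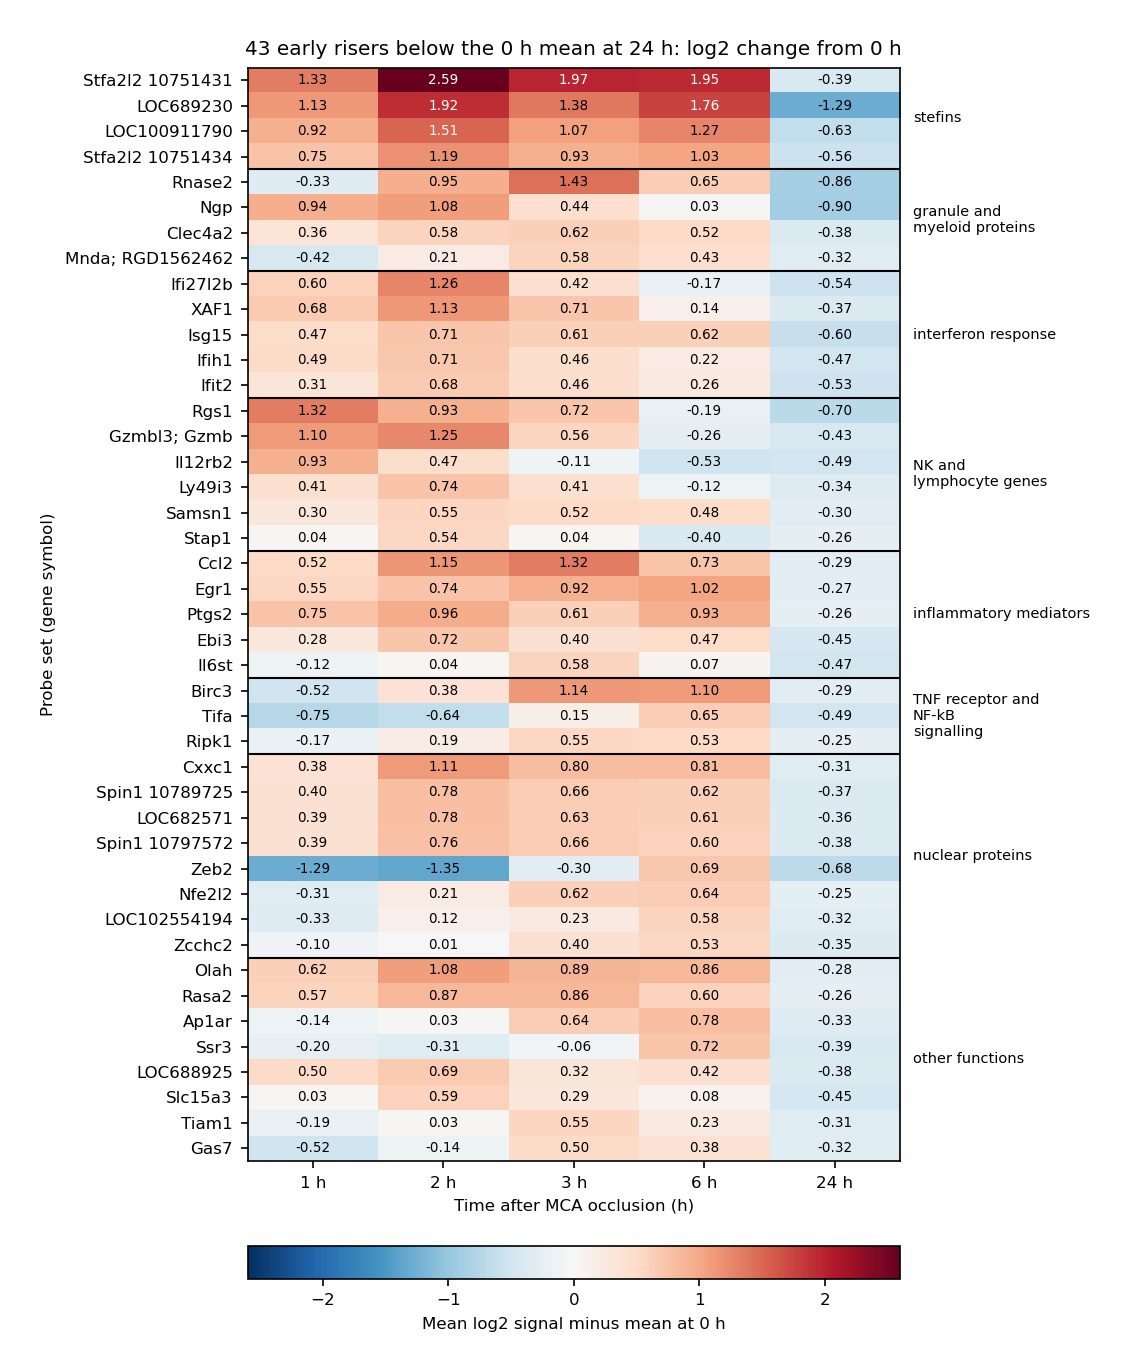
Mean log2 signal minus the mean at 0 h for each of the 43 members (rows, gene symbols, with the probe set number where a gene has several) at 1, 2, 3, 6 and 24 h (columns), with red above and blue below 0 h, grouped by known role. The 24 h column is blue throughout, the stefins are the deepest red at 2 h, and the rows of Birc3, Tifa and Zeb2 start blue.

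The steepest early rise was in the stefins, small intracellular proteins that block cathepsins and other cysteine proteases and that rodents carry as a cluster of copied genes. The 4 stefin probe sets belong to 3 genes within a stretch of chromosome 11 (rn5), LOC689230 at 70419285 to 70426584, Stfa2l2 at 70540477 to 70542834 and LOC100911790 at 70554163 to 70558905. Their highest changes lay between 1.19 and 2.59, always at 2 h, and their 24 h changes between -0.39 and -1.29. In the lines that follow, the promoters of the 3 genes are shown to set these copies side by side at their start sites, as the 250 bases before each annotated start from RefSeq on build GRCr8, 5′ to 3′. They lie at chr11:78003240-78003489 for Stfa2l2, chr11:77879300-77879549 for LOC689230, which RefSeq names Csta3, and chr11:78093485-78093734 for LOC100911790, which RefSeq names Stfa2l3, all on the plus strand. Capitals mark the longest run that all 3 share, 18 bases.
Stfa2l2: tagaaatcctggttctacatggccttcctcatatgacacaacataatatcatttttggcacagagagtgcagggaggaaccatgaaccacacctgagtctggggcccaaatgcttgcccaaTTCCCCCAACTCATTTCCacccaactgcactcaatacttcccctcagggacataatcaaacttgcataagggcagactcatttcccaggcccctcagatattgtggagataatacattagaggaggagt
LOC689230: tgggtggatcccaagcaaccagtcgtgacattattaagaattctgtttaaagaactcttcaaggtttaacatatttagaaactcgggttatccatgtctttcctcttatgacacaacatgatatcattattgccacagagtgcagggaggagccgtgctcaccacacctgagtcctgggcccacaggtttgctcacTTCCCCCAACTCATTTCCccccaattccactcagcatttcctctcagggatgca
LOC100911790: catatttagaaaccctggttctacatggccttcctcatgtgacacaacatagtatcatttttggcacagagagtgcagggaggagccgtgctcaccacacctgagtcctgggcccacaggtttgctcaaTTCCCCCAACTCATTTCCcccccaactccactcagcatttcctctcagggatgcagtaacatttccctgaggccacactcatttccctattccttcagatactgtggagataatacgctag

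Counted in bases from the annotated start, the shared run begins at -129 in Stfa2l2, at -121 in LOC100911790 and at -54 in LOC689230. Windows of 300 bases, which also take in the first 50 of the gene, were aligned end to end. Those of Stfa2l2 and LOC100911790 were 81.6% identical and shared an unbroken run of 46 bases. In the sequences printed above, LOC689230 and LOC100911790 share a longer unbroken run, which ends in tttgctca shortly before the capitals. The window of LOC689230 was 49.3% identical to that of Stfa2l2 and 58% to that of LOC100911790. The shared run lies closer to the start in LOC689230, so this score also reflects where the starts are annotated. It cannot rank the copies by the likeness of their sequence. By the same score the window of Stfa3 was 57.1% and 61% identical to those of Stfa2l2 and LOC100911790. That of Stfa2 was 63.7% and 70.5% identical to them. The lowest score among the 8 stefins compared was 46.6%, between Stfa2l2 and Stfa3l1. The 49.3% between LOC689230 and Stfa2l2 is not read beside it, because their shared run begins at -54 and -129. Copied genes can also share array probes, so the values of single stefins are uncertain where the copies match.

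LOC689230, described as similar to stefin A2, had the deepest 24 h fall of all members. Its mean log2 signal was 9.20 ± 0.58, 10.33 ± 0.29, 11.12 ± 0.29, 10.58 ± 0.22, 10.96 ± 0.44 and 7.92 ± 0.57, for the 6 time points in order (0, 1, 2, 3, 6 and 24 h), where each error is the SD over 8 arrays, or over 7 at 6 h. All values of this form below follow the same order. At its peak it was at 3.79 times the 0 h level, and at 24 h it was at 0.41 of the 0 h level, a fall of more than the SD of 0.58 at 0 h. Between 6 h and 24 h it dropped by 3.05 on the log2 scale, which was the largest step of any member.

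Stfa2l2 has a pair of probe sets over the same transcript, and they differed in size. Probe set 10751431, the farthest from 0 h of all members, read 6.58 ± 0.46, 7.92 ± 0.36, 9.17 ± 0.34, 8.56 ± 0.36, 8.53 ± 0.65 and 6.19 ± 0.61. Its fall of 0.39 at 24 h lay within the SD of 0.61. Probe set 10751434 read 10.90 ± 0.19, 11.65 ± 0.17, 12.09 ± 0.15, 11.83 ± 0.23, 11.93 ± 0.22 and 10.35 ± 0.28, and its 24 h change of -0.56 was larger than either SD. LOC100911790, described as stefin-3-like, read 9.60 ± 0.19, 10.52 ± 0.18, 11.12 ± 0.20, 10.67 ± 0.23, 10.88 ± 0.30 and 8.97 ± 0.32. Both were well clear of the 0 h mean at 2 h and below it at 24 h by more than the spread of the rats. In LOC689230, LOC100911790 and Stfa2l2 probe set 10751434, the signal dipped from 2 h to 3 h and was higher again at 6 h.

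Other stefins of the same stretch did not reach the limit at 24 h. Stfa3 was 2.41 above 0 h at 2 h and -0.12 from it at 24 h, and Stfa2l1 was 0.50 above 0 h at 2 h and 0.01 from it at 24 h. Csta changed by at most 0.37 early and by 0.06 at 24 h, and Stfa3l1 by at most 0.19 and by -0.07. The SDs of Stfa3 were 0.58 at 0 h and 0.46 at 24 h. Its 24 h change is thus not clearly apart from the -0.39 of Stfa2l2 probe set 10751431. The 0 h means of Stfa2l1, Stfa3l1 and Csta were 5.03, 4.96 and 6.08, below the median of 6.76 over all probe sets with a symbol. Whether a fall could be seen at such low signals was not tested. The neighbouring Casr, which encodes the calcium-sensing receptor and is no stefin, changed by at most 0.15 early and by 0.14 at 24 h.

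**Figure D3:**
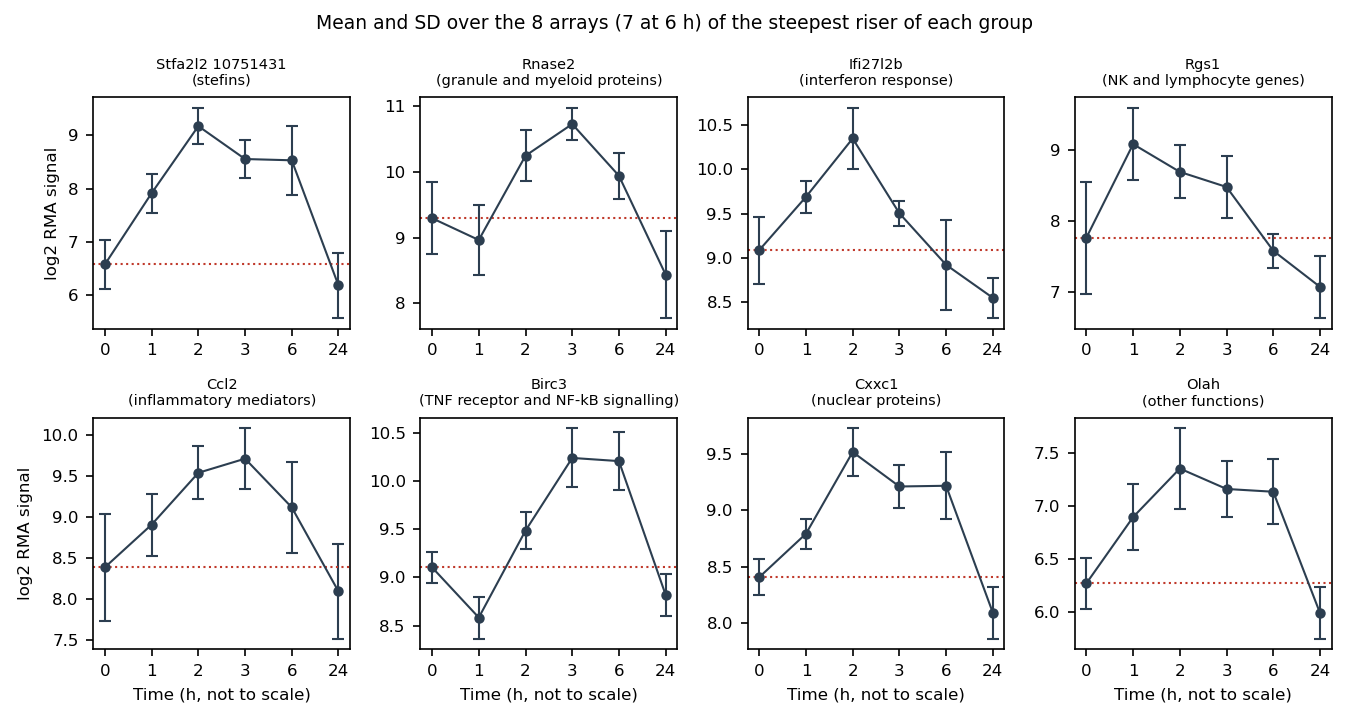
Mean log2 signal (y axis, own scale per panel) with the SD over 8 arrays, or 7 at 6 h, as error bars, at 0, 1, 2, 3, 6 and 24 h (x axis, not to scale), for the member with the steepest early rise in each role group, with the 0 h mean dotted. Each of the 8 peaks stands clear of the 0 h mean, Birc3 and Rnase2 start lower at 1 h, and in all 8 panels the SD bars at 24 h overlap those at 0 h.

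Among granule and myeloid proteins, Ngp and Rnase2 had the deepest falls at 24 h after LOC689230, with changes of -0.90 and -0.86. Ngp, a granule protein made by neutrophil precursors, read 10.83 ± 0.36, 11.76 ± 0.23, 11.91 ± 0.25, 11.26 ± 0.24, 10.86 ± 0.79 and 9.93 ± 0.75. It was already back at its 0 h level by 6 h, with wide SDs at 6 h and 24 h. Rnase2, a secreted ribonuclease of the family that holds the eosinophil-derived neurotoxin, read 9.30 ± 0.55, 8.96 ± 0.53, 10.25 ± 0.39, 10.73 ± 0.25, 9.94 ± 0.35 and 8.44 ± 0.66. Its course was a dip, a peak at 3 h of 2.70 times the 0 h level, and a 24 h level of 0.552 of that at 0 h. Clec4a2, an inhibitory C-type lectin of myeloid cells, changed by 0.36, 0.58, 0.62, 0.52 and -0.38 at 1, 2, 3, 6 and 24 h, and its fall at 24 h was about as large as the SDs of 0.36 at 0 h and 0.38 at 24 h. Mnda and RGD1562462, interferon-inducible nuclear proteins that share a probe set, changed by -0.42, 0.21, 0.58, 0.43 and -0.32.

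The neutrophil markers went another way at 24 h. Of the 11 neutrophil marker probe sets, 10 rose by 0.5 or more early, 7 were 0.25 or more above 0 h at 24 h, and Ngp alone was 0.25 or more below it. The summed linear signal of the 11 was 2.10, 2.83, 2.49, 2.81 and 1.55 times its 0 h value at 1, 2, 3, 6 and 24 h. Camp, the cathelicidin found in the same granules as Ngp, was 2.11 above 0 h early and at -0.00 at 24 h. The sum of 7 monocyte marker probe sets was 0.844, 1.04, 1.10, 1.06 and 0.893 times that at 0 h, lower at 1 h, highest at 3 h and lower again at 24 h, as Rnase2 and the probe set of Mnda were. Within that list Cd14 was 1.84 above 0 h at 3 h, while Cx3cr1, Csf1r and Cd68 were below 0 h at every time point. The sum of 5 eosinophil marker probe sets was 1.22, 1.15, 0.919, 1.01 and 1.08 times that at 0 h. These markers were split at 3 h, with Il5ra at -1.74 and Ccr3 at -0.76, against Prg2 at 0.25, Siglec5 at 0.23 and Epx at 0.21. At 1 h, when Rnase2 was at -0.33, the neutrophil sum was already at 2.10. The part that the numbers of these cells had in the changes of the stefins and of the granule and myeloid members was not tested.

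Of the 5 members of the interferon response, 5 were highest at 2 h, against 29.8% of all early risers, and 5 were lower at 24 h than 0 h by more than the larger SD. Of all 43 members 24 were highest at 2 h and 36 had such a fall, so these counts do not set the group apart. The interferon-inducible Mnda and RGD1562462 share a probe set that was grouped with the myeloid proteins and was highest at 3 h. The count at 2 h thus depends on the grouping. The rises of the 5 ran from 0.68 to 1.26 and their 24 h changes from -0.37 to -0.60. Ifi27l2b, an interferon alpha-inducible protein, read 9.09 ± 0.38, 9.69 ± 0.18, 10.35 ± 0.35, 9.50 ± 0.14, 8.92 ± 0.51 and 8.55 ± 0.23. XAF1, a binder of the apoptosis inhibitor XIAP, read 8.74 ± 0.19, 9.42 ± 0.14, 9.87 ± 0.17, 9.45 ± 0.17, 8.88 ± 0.31 and 8.37 ± 0.15. At 6 h both were back within their SDs of the 0 h mean. Isg15, a ubiquitin-like tag attached to proteins in antiviral cells, kept more of it and read 10.16 ± 0.29, 10.63 ± 0.15, 10.88 ± 0.29, 10.78 ± 0.15, 10.78 ± 0.33 and 9.56 ± 0.22. Ifih1, the cytoplasmic sensor of long double-stranded RNA known as MDA5, had some of the tightest values of all members, at 10.24 ± 0.11, 10.73 ± 0.13, 10.95 ± 0.14, 10.71 ± 0.12, 10.47 ± 0.07 and 9.77 ± 0.04. Ifit2, an antiviral RNA-binding protein, read 10.10 ± 0.15, 10.41 ± 0.15, 10.78 ± 0.11, 10.56 ± 0.14, 10.36 ± 0.11 and 9.57 ± 0.17. In all of these except Isg15 the signal was lower at 6 h than at 3 h.

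Promoters of Ifih1 and Xaf1 are shown because interferon-stimulated genes are known for a response element, the ISRE, close to the start. Both sequences are the 250 bases before the annotated start, 5′ to 3′ on the strand of the gene, from RefSeq on GRCr8, at chr3:67683969-67684218 (minus strand) and chr10:57415685-57415934 (plus strand). Capitals mark matches to GAAANNGAA, a core of this element searched on both strands and added after the members had been seen.
Ifih1: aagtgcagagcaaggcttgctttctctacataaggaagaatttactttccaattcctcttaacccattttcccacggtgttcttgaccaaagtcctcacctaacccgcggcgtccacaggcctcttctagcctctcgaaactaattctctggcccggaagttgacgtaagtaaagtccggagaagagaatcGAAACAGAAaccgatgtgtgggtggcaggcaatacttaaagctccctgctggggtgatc
Xaf1: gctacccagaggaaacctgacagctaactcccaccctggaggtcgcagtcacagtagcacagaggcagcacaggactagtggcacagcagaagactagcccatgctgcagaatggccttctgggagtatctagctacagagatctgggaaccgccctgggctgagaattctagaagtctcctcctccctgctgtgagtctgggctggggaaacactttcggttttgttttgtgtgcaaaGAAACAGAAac

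The match begins at -59 from the start of Ifih1 and at -11 from that of Xaf1, and it has the same 9 letters in both. Of the 15 genes of the interferon list with a promoter here, 11 held the core, members or not, against 9.71% of all 33469 promoter windows. Genes with these letters also lay outside the early risers, as Cxcl10, Ifi44 and Oas1b held the core and stayed under the limit for a rise.

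Most interferon-stimulated genes shared the fall and not the rise. In the list of type I interferon response genes, which gave 26 probe sets, 19 were 0.25 or more below 0 h at 24 h, against 13.8% of all probe sets, and 6 rose by 0.5 or more early, against 6.37%. The members Ifit2, XAF1, Isg15 and Ifih1 were 4 of these 6. The others were Ifit3, at 0.85 early and -0.07 at 24 h, and Oasl, at 0.78 and -0.24. The list as a whole had a median highest early change of 0.16 and a median 24 h change of -0.53. The antiviral GTPases Mx1 and Mx2 were lower than 0 h throughout, with highest early changes of -0.65 and -0.81 and 24 h changes of -1.53 and -2.21. Against this, Rsad2 was 0.38 above 0 h at 24 h.

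**Figure D4:**
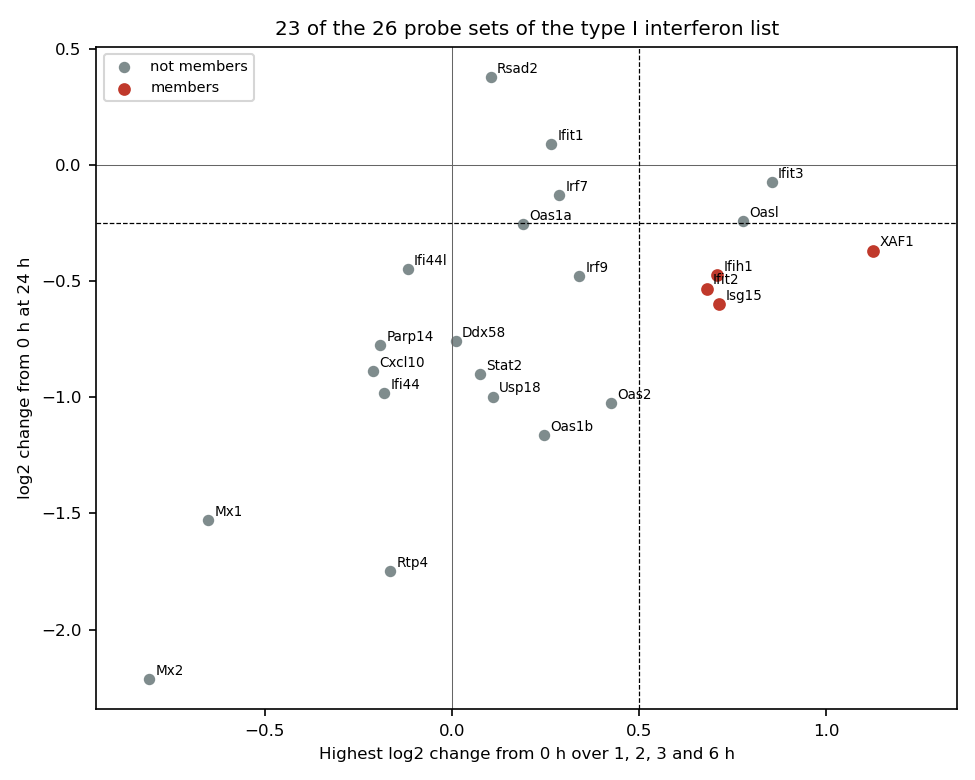
Highest change from 0 h over the early time points (x axis, log2) against the change at 24 h (y axis, log2) for 23 of the 26 probe sets of the type I interferon list, members in red and limits of the rule dashed. The 4 members stand alone at the right below the line, while Mx2, Rtp4 and Mx1 lie far lower with no early rise.

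Genes of NK cells and lymphocytes made up 6 members, and 5 of them were below 0 h already at 6 h, against 41.3% of all probe sets and 7.92% of all early risers. Rgs1, which shortens signalling from chemokine receptors, peaked at 1 h and read 7.76 ± 0.79, 9.08 ± 0.51, 8.69 ± 0.38, 8.48 ± 0.44, 7.58 ± 0.24 and 7.07 ± 0.44. It varied most between rats, with an SD of 0.79 at 0 h, and its fall of 0.70 at 24 h lay within that SD. Il12rb2, the signalling chain of the interleukin 12 receptor on NK and T cells, also peaked at 1 h and read 8.88 ± 0.16, 9.82 ± 0.40, 9.35 ± 0.11, 8.77 ± 0.41, 8.36 ± 0.34 and 8.40 ± 0.26. It was lower than 0 h from 3 h on and changed little between 6 h and 24 h. The probe set of Gzmbl3 and Gzmb, granzyme B being the main protease of cytotoxic granules, read 6.02 ± 0.26, 7.13 ± 0.59, 7.27 ± 0.30, 6.59 ± 0.32, 5.77 ± 0.31 and 5.60 ± 0.18. Ly49i3, a receptor of the Ly49 family by which NK cells read MHC class I, changed by 0.41, 0.74, 0.41, -0.12 and -0.34, from a 0 h mean log2 signal of 4.61. Stap1, an adaptor of B cell receptor signalling, was up at 2 h only, with changes of 0.04, 0.54, 0.04, -0.40 and -0.26. Samsn1, an adaptor that dampens B cell activation, was the exception at 6 h, with changes of 0.30, 0.55, 0.52, 0.48 and -0.30.

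The markers of these cells fell over the same hours. The summed signal of 10 NK cell marker probe sets was 1.01, 0.776, 0.642, 0.548 and 0.542 times that at 0 h at 1, 2, 3, 6 and 24 h, and 8 of the 10 were 0.25 or more below 0 h at 24 h. The sum of 12 T cell marker probe sets was 0.786, 0.565, 0.503, 0.441 and 0.62 times that at 0 h, and all 12 were 0.25 or more below it at 24 h. The sum of 16 B cell marker probe sets was 0.37, 0.274, 0.268, 0.339 and 0.679 times that at 0 h. The part of cell number in the fall of these members was not tested. At 1 h, when Rgs1, Il12rb2 and the probe set of Gzmbl3 and Gzmb stood 0.93 to 1.32 above 0 h, the NK sum, which includes that probe set, was 1.01 times its 0 h value.

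Of the 5 inflammatory mediators, Ccl2, Egr1 and Ptgs2 had a shallow fall that lay within the SDs, while Ebi3 and Il6st fell by more. Ccl2, the chemokine that draws monocytes, read 8.39 ± 0.65, 8.91 ± 0.38, 9.54 ± 0.32, 9.71 ± 0.37, 9.12 ± 0.55 and 8.09 ± 0.57. Egr1, an immediate early transcription factor, was highest at 6 h and read 8.25 ± 0.76, 8.79 ± 0.50, 8.99 ± 0.42, 9.17 ± 0.37, 9.27 ± 0.63 and 7.98 ± 0.30. Ptgs2, the inducible cyclooxygenase of prostaglandin synthesis, had a peak at 2 h and another at 6 h, at 7.94 ± 0.47, 8.69 ± 0.35, 8.89 ± 0.30, 8.54 ± 0.19, 8.86 ± 0.31 and 7.67 ± 0.21. These 3 were 0.5 or more above 0 h at all 4 early time points, and at 24 h they were lower than 0 h by 0.26 to 0.29, less than the larger SD. Ebi3, a subunit shared by interleukins 27 and 35, was lower at 24 h by more than the spread and read 8.24 ± 0.18, 8.52 ± 0.15, 8.96 ± 0.13, 8.64 ± 0.23, 8.71 ± 0.46 and 7.79 ± 0.22. Il6st, the gp130 chain shared by the receptors of the interleukin 6 family, rose at 3 h alone and read 9.17 ± 0.16, 9.04 ± 0.18, 9.21 ± 0.16, 9.75 ± 0.22, 9.24 ± 0.22 and 8.69 ± 0.20. The 24 h changes of Ebi3 and Il6st were -0.45 and -0.47, against a median of -0.38 over all members.

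The members that act downstream of TNF receptors and in NF-kB signalling were below 0 h at 1 h in 3 of 3 cases, as were 14 of the 43 members, 39.6% of all probe sets and 11.2% of all early risers. Birc3, an E3 ubiquitin ligase of the TNF receptor complex and itself an NF-kB target, read 9.11 ± 0.16, 8.58 ± 0.22, 9.49 ± 0.19, 10.24 ± 0.31, 10.21 ± 0.30 and 8.82 ± 0.22. It thus moved from 0.52 below 0 h at 1 h (change of -0.52) to 1.14 above it at 3 h, and the SDs of these points do not overlap. Tifa, an adaptor that activates TRAF6, read 7.95 ± 0.22, 7.20 ± 0.34, 7.31 ± 0.13, 8.11 ± 0.21, 8.60 ± 0.20 and 7.46 ± 0.23. It was below 0 h at 1 h and 2 h, near it at 3 h and highest at 6 h. Ripk1, the kinase that joins survival and death signals at the same receptor, changed by less, with -0.17, 0.19, 0.55, 0.53 and -0.25. Ripk1 also lay next to the limit of the rule at 24 h, at -0.25.

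Ap1ar, another member, is a neighbour of Tifa in the genome and regulates the AP-1 adaptor complex of vesicle traffic. On chromosome 2 of rn5, Tifa lies at 251473155 to 251482346 on the plus strand and Ap1ar at 251491339 to 251523419 on the minus strand, with 8992 bases between them. Ap1ar was highest at 6 h and read 9.55 ± 0.12, 9.41 ± 0.20, 9.58 ± 0.12, 10.19 ± 0.14, 10.33 ± 0.10 and 9.21 ± 0.08. Its rise and fall were both large beside its SDs, which were 0.20 or less. Both genes were highest at 6 h and below 0 h at 24 h, but at 2 h Tifa was at -0.64 and Ap1ar at 0.03, and at 3 h they were at 0.15 and 0.64.

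Among nuclear proteins, the course split between peaks at 2 h and at 6 h, with 4 of the 8 probe sets each. Cxxc1, which binds unmethylated CpG sites and recruits histone H3K4 methylation, read 8.41 ± 0.16, 8.79 ± 0.13, 9.52 ± 0.21, 9.21 ± 0.19, 9.22 ± 0.30 and 8.09 ± 0.23. Spin1, a reader of methylated histones, was measured by probe sets 10789725 and 10797572, and LOC682571 is described as similar to it. Their changes were nearly equal at every time point, with 0.40, 0.78, 0.66, 0.62 and -0.37 for the first, 0.39, 0.76, 0.66, 0.60 and -0.38 for the second and 0.39, 0.78, 0.63, 0.61 and -0.36 for LOC682571. Such near-identical copies can share probes, so these 3 may not be separate measurements. Spin2a and Spin4, the spindlins of the X chromosome, rose by at most 0.21 and 0.33 and were 0.17 and 0.13 above 0 h at 24 h.

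The late group among nuclear proteins started below 0 h. Zeb2, a zinc finger repressor that shapes NK, myeloid and dendritic cell development, read 7.82 ± 0.49, 6.53 ± 0.42, 6.47 ± 0.39, 7.53 ± 0.74, 8.51 ± 0.36 and 7.14 ± 0.52. It was the lowest of all members at 1 h and 2 h and met the rule only by its 6 h value of 0.69, just above 0.68, the size of its fall a day after occlusion (change of -0.68). Nfe2l2, the transcription factor NRF2 that turns on antioxidant genes, read 10.54 ± 0.11, 10.23 ± 0.12, 10.75 ± 0.11, 11.17 ± 0.12, 11.19 ± 0.13 and 10.29 ± 0.10. It had narrow SDs throughout, so that the dip at 1 h, the plateau at 3 h and 6 h and the shallow fall at 24 h each exceeded them. Zcchc2, a zinc finger protein, changed by -0.10, 0.01, 0.40, 0.53 and -0.35, and LOC102554194, described as a zinc finger protein, by -0.33, 0.12, 0.23, 0.58 and -0.32.

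The remaining 7 members have other functions. Olah, a thioesterase that releases fatty acids from the fatty acid synthase, read 6.27 ± 0.24, 6.89 ± 0.31, 7.35 ± 0.38, 7.16 ± 0.26, 7.13 ± 0.31 and 5.99 ± 0.24. Rasa2, which switches off Ras, read 8.39 ± 0.19, 8.96 ± 0.32, 9.26 ± 0.21, 9.25 ± 0.23, 8.99 ± 0.14 and 8.13 ± 0.17. Both were 0.5 or more above 0 h at all 4 early time points. Slc15a3, a lysosomal transporter of peptides and histidine, rose at 2 h and read 8.94 ± 0.13, 8.97 ± 0.17, 9.54 ± 0.22, 9.23 ± 0.29, 9.03 ± 0.09 and 8.50 ± 0.17. Ssr3, a subunit of the complex that brings new proteins into the endoplasmic reticulum, was at or below 0 h until 3 h and rose at 6 h alone, with changes of -0.20, -0.31, -0.06, 0.72 and -0.39. Tiam1, an activator of the small GTPase Rac, changed by -0.19, 0.03, 0.55, 0.23 and -0.31, and Gas7, a regulator of the actin cytoskeleton, by -0.52, -0.14, 0.50, 0.38 and -0.32. LOC688925, described as similar to a glutathione S-transferase, changed by 0.50, 0.69, 0.32, 0.42 and -0.38.

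For Gzmb and Zeb2, and for Ly49i3, other probe sets name the same gene and can be set beside the members. The other probe sets named for Gzmb did not share the early rise of the member. Probe set 10875985, which names Gzmb and Gzmbl2, and probe set 10784054, which names Gzmbl3, Gzmbl1, Gzmbl2 and Gzmb, were at most 0.23 and 0.17 above 0 h early and were at -1.02 and -1.03 at 24 h, while the member was 1.25 above 0 h at 2 h and -0.43 at 24 h. Gzmbl2 was likewise 0.30 above at 1 h and -0.77 at 24 h. The member lies at 39971483 to 39974611 of chromosome 15, apart from the other probe sets named for Gzmb, which lie from 40211938 on, and the symbols do not settle which of the copies it measures. The other Zeb2 probe set, at 35063908 to 35185403 of chromosome 3, had the same order of times with smaller changes, -0.52, -0.52, -0.03, 0.29 and -0.15. The member covers 35062657 to 35063057, a short stretch next to it. The shared Ly49 probe set has been given above, and its values at 1, 2, 3 and 6 h were 0.58, 0.65, 0.19 and -0.42.

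**Figure D5:**
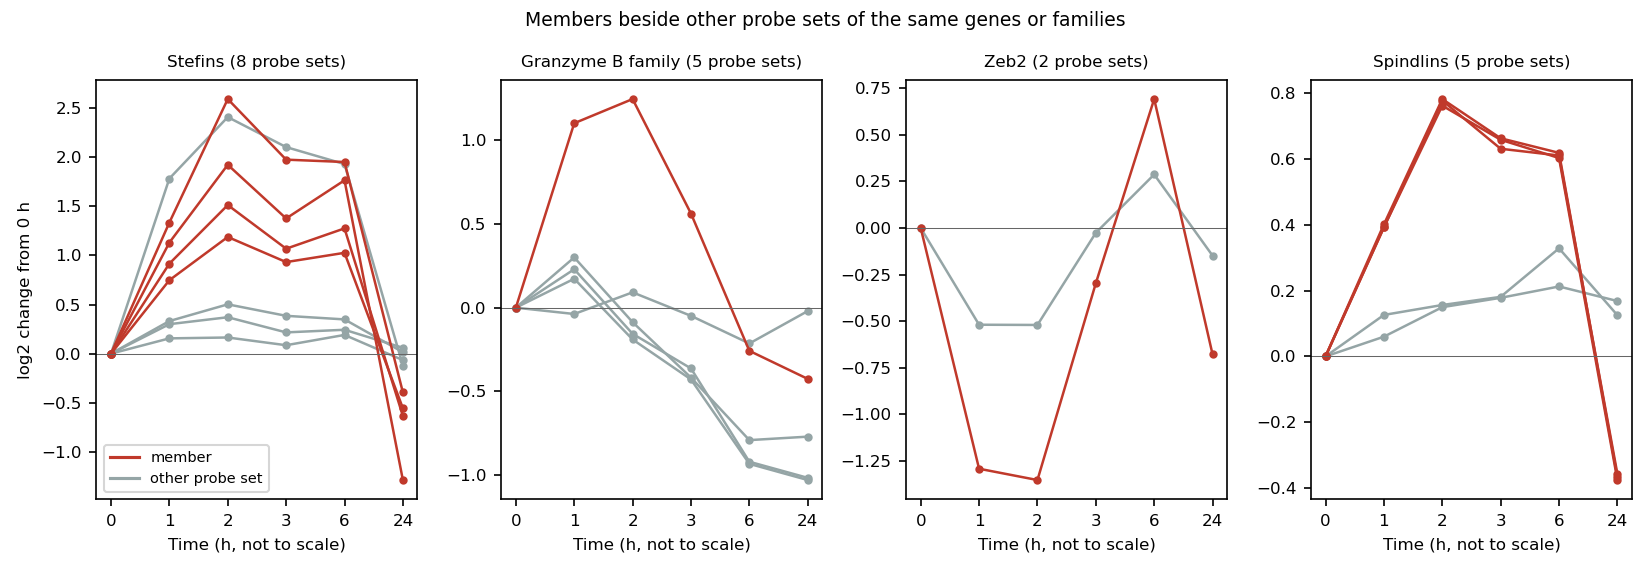
Change of the mean log2 signal from 0 h (y axis, own scale per panel) over time (x axis, not to scale) for members (red) and other probe sets of the same genes or families (grey): stefins, granzyme B and its copies, Zeb2 and spindlins. Red lines end below 0 in all 4 panels, and Stfa3 is the grey line that rises as far as the member stefins and ends at -0.12.

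Most of the other gene lists with a member held 1 each. Over all probe sets 0.201% were members, 6.37% rose early by 0.5 or more and 13.8% were 0.25 or more below 0 h at 24 h, and the counts of each list stand against these shares. Immediate early genes gave 24 probe sets, of which 8 rose early by 0.5 or more and 5 were 0.25 or more below 0 h at 24 h, with Egr1 as the one member. Regulators and subunits of NF-kB gave 15 probe sets, 4 early risers and 4 below at 24 h, with Birc3 as the member. Cytokines and chemokines gave 32 probe sets, 8 early risers and 10 below at 24 h, with Ccl2. Their receptors gave, in the same order of counts, 32, 19 and 8, with Il6st. Enzymes and receptors of the eicosanoid pathway gave 22, 11 and 1, so that Ptgs2, the member, was also the only probe set of the list at or below -0.25 at 24 h. Proteases and their inhibitors gave 26, 19 and 2, and both of the low ones were Stfa2l2. C-type lectins and paired NK receptors gave 62, 20 and 24, with Clec4a2 and Ly49i3. Membrane transporters gave 27, 16 and 3, with Slc15a3, and purinergic and other G protein-coupled receptors, with their regulators, 31, 12 and 6, with Rgs1. Genes of apoptosis and survival gave 27, 7 and 5, again with Birc3. No member came from the lists of the glucocorticoid response (24 probe sets), the circadian clock (19), hypoxia and glycolysis (31) or Toll-like receptors and pattern recognition (29), which held 12, 4, 16 and 15 early risers. At a share of 0.201% over all probe sets, lists of this size would mostly hold none, so nothing is read from these counts of 0.

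Genes close to the limits show how the rule draws its line. Just inside the limit on the rise were Gas7 (0.50), Zcchc2 (0.53) and Stap1 (0.54), and just outside were Kir3dl1 (0.49), Klrg1 (0.49) and Sat1 (0.47). Just inside the limit at 24 h were Nfe2l2 (-0.25), Ripk1 (-0.25) and Stap1 (-0.26), and just outside were F2r and Creb1, whose changes also round to -0.25, and Ly49s4 (-0.24). The NK cell receptors Kir3dl1 and Klrg1 both peaked at 1 h and were below 0 h at 6 h, with changes of -0.41 and -0.59. For the rise against the fall, Zeb2, Il6st and Isg15 were the closest inside.

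The early risers outside the rule with the course most like the members' median were Ripk3, Far1, Ifit3, Trib1 and Vps54, with Pearson correlations of 0.98, 0.97, 0.96, 0.96 and 0.96 over the 6 time points, which share arrays and are no independent replicates. Their 24 h changes lay between -0.07 and -0.14. Ripk3, a kinase that binds the member Ripk1 in necroptosis, was 0.48, 0.85, 0.69 and 0.75 above 0 h at 1, 2, 3 and 6 h.

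Promoter windows were matched for 32 of the 43 gene names of the members. Besides the ISRE core, found in 7 of the 32, or 21.9%, motifs of fixed letters were counted on both strands over the 300 bases. The letters TGACGT, part of a cyclic AMP response element, were in 15.6% of the members' windows and in 7.94% of all windows, and the genes were Rgs1, Gzmb (the other symbol of the Gzmbl3 probe set), Egr1, Ifih1 and Zeb2. For AGAACA, part of a glucocorticoid response element, the shares were 12.5% and 20.7%. For the Sp1 motif GGGCGG they were 31.2% and 33.1%. For the hypoxia motif ACGTG they were 25% and 19.3%. For the erythroid factor motif AGATAA they were 15.6% and 11.6%. The STAT motif TTCNNNGAA gave shares of 12.5% and 8.87%. The AP-1 motif TGAGTCA was found in 6.25% of the members' windows against 4.63% of all. The E-box CACGTG was found in 3.12% against 6.42%. A heat shock motif, GAANNTTC, was found in 3.12% against 8.59%. Last, the letters TATAAA of a TATA box, added after the members had been seen, were found in 9.38% against 14.2%. None of the 32 held the NF-kB motif GGGACTTTC, which was in 0.326% of all windows. Nor did they hold the full cyclic AMP element TGACGTCA (1.83% of all windows), the D-box TTATGTAA (0.893%) or the PU.1 motif AGAGGAAGT (0.792%). The hypoxia motif shares letters with the E-box and with the cyclic AMP element. No window was matched for Ccl2, Ifi27l2b, Birc3, LOC682571, Ebi3, Isg15, Ifit2, Slc15a3, LOC102554194, Stap1 and Gas7.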

How the data were processed

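Blood mRNA from 47 samples of 8 rats was hybridized to Affymetrix RaGene 1.0 ST arrays. The authors summarised each probe set by RMA on the gene level, with annotation on rn5, and deposited log2 means and SDs for each of the 6 time points. The submitters' processing notes name limma. These 12 columns were used. The 47 columns of single arrays are numbered, with no rat or time in their names, and were neither assigned to samples by their order nor used, so the SDs are the authors' and no value of a single rat is given. The 19 columns of the authors' fold changes, p-values and F-tests were not used. Changes, peaks and counts were computed with Python 3.11.15, pandas 2.3.3 and numpy 2.4.6, and the rule was tested on simulated data. RMA values have no detection call here, and the precision of each mean is limited by 7 or 8 arrays. Samples were grouped by the time in their labels.

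The members, gene lists and role groups were chosen with earlier results of these data known. Values are given for the 12 members with the highest rise, the 12 with the deepest 24 h fall, the 3 highest at each early time, members of the gene lists and genes next to the limits, and all members may be named. The values of 1 gene of the interferon list are not reported here, though its 3 probe sets are in the counts and medians of the list. Because the rule uses every contrast with 0 h, the linear model planned for single arrays was not fitted and no test was run. Alternatives were centring or quantile normalization of the means, a filter on the lowest 25% of probe sets, other thresholds, 1 probe set per symbol, the SD condition and leaving out 6 h. Promoters are from RefSeq on GRCr8, and no rn5 position was compared with them.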

Additional observations from a re-analysis of the deposited data

How the results depend on the processing

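The number of members lay between 33 and 56 over the alternatives that were run, against 43. It was 54 and 33 with a limit of 0.4 and 0.6 on the rise, and 56 and 33 with a limit of -0.2 and -0.3 at 24 h. After centring each time point it was 51, which kept 41 of the 43 and lost Gas7 and Zeb2. After quantile normalization it was 40, which kept 34 and lost Birc3, Ccl2, Cxxc1, Egr1, Nfe2l2, Ptgs2, Rasa2, Ripk1 and Stap1. All 43 kept both signs under either scaling, which the limits of the rule largely fix, so this is no sign of stability. With 6 h left out of the early times, an alternative chosen after seeing the data, 38 remained, without LOC102554194, Ssr3, Tifa, Zcchc2 and Zeb2. With the rise and the fall both larger than the larger SD, 36 remained. No paired analysis was possible because the array columns are only numbered, name no rat or time and were not assigned by their order, so a replicate block and leaving out each rat were not run. No probe set was called above background, so low signals such as that of Ly49i3 are the least certain.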
